A study of Mus musculus with 6 samples.

Results

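Fibroblast and extracellular matrix genes were followed in cultured mouse megakaryocytes, the parent cells of platelets. The list named 49 genes for collagens, matrix glycoproteins, proteoglycans, the enzymes that process and degrade them, and surface and contractile proteins of fibroblasts. Members were chosen by name. Each gene was read from the brightest probe set that the platform annotation assigned to it alone, and 47 of the 49 were measured, among 18193 genes measured in all. Fbn1 and Loxl2 had no such probe set in the annotation used and were not analysed here. Of the 47 genes, 45 passed the filter on dim probe sets and entered the test, among 11260 genes tested.

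Expression was measured on 6 arrays, with 3 arrays of each genotype group, each a biological replicate per the labels. Control replicates 1 and 2 were FOG1+/- and control replicate 3 was FOG1+/+, while the FOG1 ki/ki arrays (labelled FOG1-/- ki/ki) came from cells that carried a knocked-in allele of FOG1 whose sequence change the labels do not name. FOG1 is the cofactor of GATA transcription factors encoded by Zfpm1. All cultures were grown from fetal liver with thrombopoietin, the hormone that drives megakaryocyte differentiation, mature cells were taken from an albumin gradient, and all mice had a mixed C57BL/6xSv129 background. The labels give neither the age of the embryos nor whether embryos were pooled, and leave unstated what, if anything, equal replicate numbers share. Values are MAS5 signals, which have no physical unit. The median signal ran from 5.93 to 12.3 over the arrays, so signals of about 10 lie near background. The 9 megakaryocyte markers measured of 11 listed summed to between 16236 and 24223 on every array, and 3' over 5' signal, in log2 units, ran from 0.26 to 1.25 for Gapdh and from 0.45 to 1.47 for beta-actin, highest for both on FOG1 ki/ki replicate 3.

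Fibroblasts and related mesenchymal cells secrete the collagens that give a tissue its strength. Procollagen chains are hydroxylated and folded with help from chaperones, secreted, and crosslinked outside the cell by lysyl oxidases, while metalloproteinases and their TIMP inhibitors set the turnover. Fetal liver holds mesenchymal cells beside the blood-forming cells. Megakaryocytes and platelets also make or carry some matrix proteins, among them fibronectin and SPARC.

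Most of the genes read highest on 1 control array, and the level of the list differed more between replicate numbers than between genotypes. Their median signal was 106, 452 and 10.2 on control replicates 1, 2 and 3, and 57.9, 134 and 14.8 on FOG1 ki/ki replicates 1, 2 and 3. Control replicate 2 held the highest value of 41 of 47 genes, against 19.4% of all genes measured, and both arrays numbered 3 lay below the other 4 arrays for 38 of 47, against 18.8% of all genes measured. The groups thus overlapped. FOG1 ki/ki replicate 2 was above control replicate 1 for 37 of 47 genes (50.7% of all genes measured), and FOG1 ki/ki replicate 1 was above control replicate 3 for 40 of 47 (54.8% of all). Replicate number accounted for a median of 81.4% of a member's variance across the 6 arrays and genotype for 7.22%, against 56.4% and 12.5% over all genes measured. In such bulk samples, fewer cells of a type and less RNA per cell cannot be told apart.

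**Figure D1:**
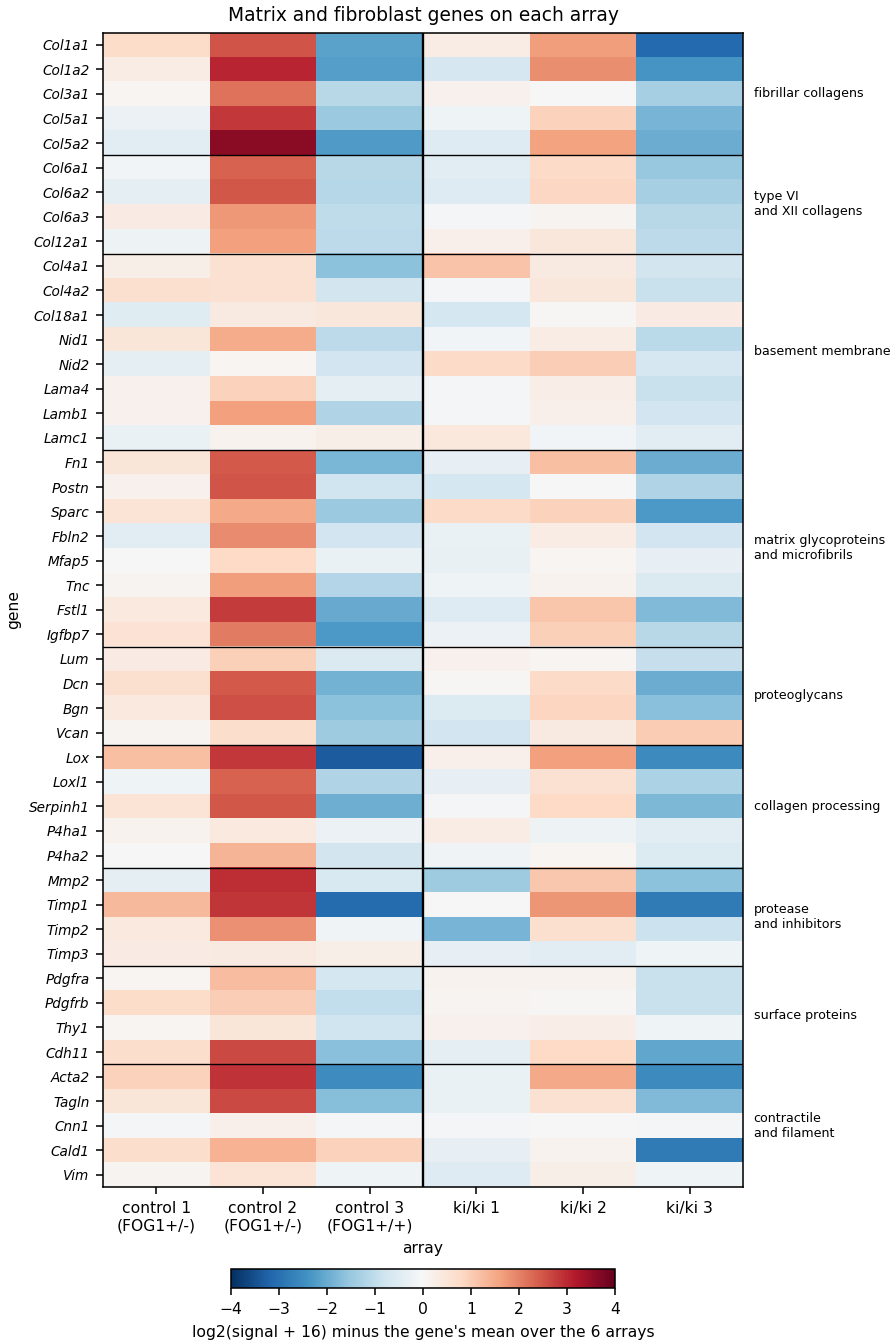
Level of the 47 measured genes (rows, grouped by role) on each of the 6 arrays (columns), as log2(signal + 16) minus the gene's mean over the arrays. Red is above and blue below that mean, and the control replicate 2 column is the reddest, with 41 of 47 genes highest there.

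Compared by genotype, 43 of 47 genes had a lower mean in FOG1 ki/ki and 4 a higher one, with a median log2 difference of -0.61, against 49% of all genes measured with a lower mean and a median of 0. By limma, 0 of the 45 genes tested passed (adjusted p from 0.211 to 0.999), where 0.151% of all genes tested did, and 0 passed with the replicate number as a block, where 0.835% did. At an unadjusted p under 0.05 there were 2 members against 6.69% of all genes, or 17 with the block, against 18.4%, of which 16 were lower, against 10.4%. The range within the 3 controls was larger than the difference between genotypes for 45 of 47 genes, against 86.7% of all genes measured. The median standard error of a member's difference was 0.71, against 0.28 over all genes tested, and 0.31 against 0.18 with the block.

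The size of the genotype difference changed when single arrays were left out, which leaves the same-numbered array of the other group without its partner. Without control replicate 2 the median was 0.23 and 17 of 47 genes lay lower in FOG1 ki/ki, and without FOG1 ki/ki replicate 3 they were -0.12 and 29. Without control replicate 3 the median was -1.39, and without FOG1 ki/ki replicate 2 it was -0.94. Leaving out whole pairs kept the direction, with medians of -0.63, -0.25 and -0.91 without the arrays numbered 1, 2 and 3.

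Within equal replicate numbers the differences were unequal. The median log2 difference, FOG1 ki/ki minus control, was -0.39 in the arrays numbered 1, -1.20 in those numbered 2 and -0.08 in those numbered 3, where all genes measured had medians of -0.01, 0.01 and 0.01. The FOG1 ki/ki array was the lower of its pair for 35, 46 and 30 of 47 genes in that order, against 50.7%, 47.2% and 48.1% of all genes measured. It was lower in all 3 pairs for 24 genes, against 17.9% of all genes measured, and higher in all 3 for 1 (19.4% of all), the basement membrane gene Nid2. Both pairs with a FOG1+/- control thus lay lower on balance, and the pair with the FOG1+/+ control, whose members had median signals of 10.2 and 14.8, lay close to 0. Control genotype and replicate number cannot be told apart here, since the FOG1+/+ control is the one numbered 3.

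**Figure D2:**
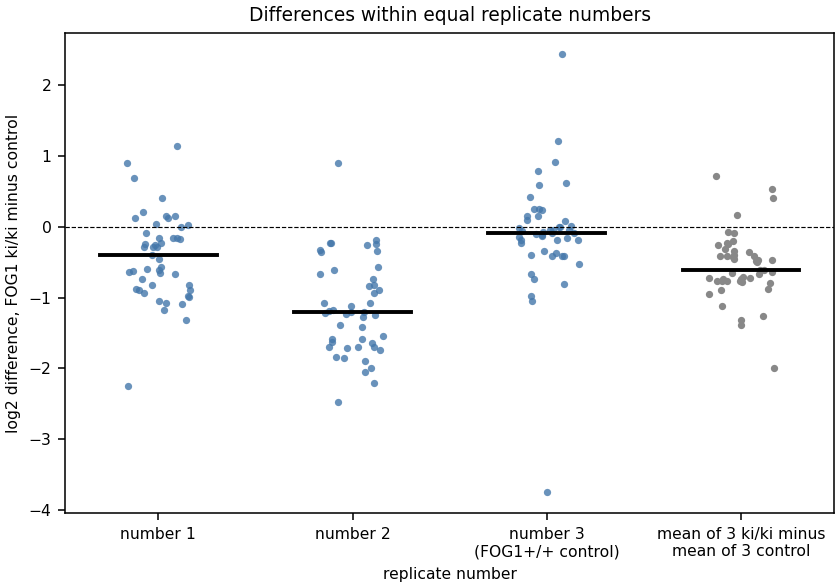
Log2 difference, FOG1 ki/ki minus control, of each of the 47 measured genes (points) within each replicate number and between the group means; bars are medians, at -0.39, -1.20, -0.08 and -0.61. The points numbered 2 lie lowest, and the lowest point of all, at -3.74 among the arrays numbered 3, is Cald1.

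With the block and without the arrays numbered 3, which leaves both pairs with a FOG1+/- control and 1 residual degree of freedom, 14 of 45 members passed, all lower in FOG1 ki/ki, against 3.19% of all genes tested called in either direction and 2.14% called lower. This setting was chosen after the data were seen. The 14 were Timp1 (limma adjusted p = 0.0106; log2 difference -1.20, SE 0.15), Timp3, Acta2, Col1a2, Lox, Cald1, Fn1, Timp2, Bgn, Igfbp7, Cdh11, Vim, Mmp2 and Fstl1, with differences from -1.71 for Timp2 to -0.47 for Vim. None passed in that fit without the arrays numbered 1 (smallest adjusted p = 0.0682, for Col1a1) or without those numbered 2 (0.0804, for Cald1).

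The fibrillar collagens, which form the banded fibres of connective tissue, had a lower mean in FOG1 ki/ki for 5 of 5 genes, with a median log2 difference of -0.76, and 0 passed the test. Col1a1, a chain of type I collagen, read 584, 2036 and 66.1 on control replicates 1, 2 and 3 and 423, 1127 and 25.8 on FOG1 ki/ki replicates 1, 2 and 3. Its partner chain Col1a2 read 386, 2675 and 53.7 in controls and 188, 1164 and 47.5 in FOG1 ki/ki. For both chains each control was above its same-numbered FOG1 ki/ki array, and FOG1 ki/ki replicate 2 was above controls 1 and 3. The group means of Col1a1 were 895 ± 1021 and 525 ± 558 (SD, n = 3 each). On the log2 scale they differed by -0.76 (SE 1.42), with an adjusted p of 0.999 in limma and 0.0878 with the block. Within the pairs the log2 difference was -0.45, -0.84 and -0.97. Col5a2, a type V chain that regulates fibre width, read 67.9, 1372 and 7.95 in controls and 62.9, 332 and 12.6 in FOG1 ki/ki. The arrays numbered 1 and 3 differed little for this gene, and control 2 was 4.14-fold above FOG1 ki/ki 2. Col3a1 and Col5a1 had log2 differences of -0.77 and -0.74, made within the arrays numbered 2 (-2.21 and -1.89) more than in those numbered 1 (0.12 and 0.03) or 3 (-0.23 and -0.37).

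The chains of type VI collagen, which form beaded filaments around cells, were also highest on control replicate 2, and with type XII collagen 4 of 4 genes had a lower mean in FOG1 ki/ki (median log2 difference -0.69, 0 passed). Col6a1 read 82.4, 532 and 33.8 in controls and 64.5, 166 and 21.6 in FOG1 ki/ki. Col6a2 read 51.8, 464 and 23.5 in controls and 44.2, 138 and 18.7 in FOG1 ki/ki. Both were higher in every control than in its same-numbered FOG1 ki/ki array, with the gap widest in the arrays numbered 2. Their log2 differences were -0.76 and -0.67. Col6a3 (-0.71) and the fibre-associated Col12a1 (-0.26) were dimmer, with mean signals of 50.1 and 25.9 over the 6 arrays.

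Basement membrane genes, whose products form the sheet beneath epithelia and around vessels, were mixed, with 6 of 8 lower in the mean in FOG1 ki/ki, a median log2 difference of -0.28 and 0 past the threshold. Col18a1, whose protein carries the endostatin fragment, read 1139, 2070 and 2177 in controls and 969, 1636 and 2029 in FOG1 ki/ki. It was bright on both arrays numbered 3, where the median signal of the members was 10.2 in control and 14.8 in FOG1 ki/ki. Its log2 difference was -0.22. Lamc1, the gamma chain of many laminins, read 145, 201 and 215 in controls and 243, 166 and 129 in FOG1 ki/ki, so no array stood apart. Col4a1, a type IV collagen chain, had a log2 difference of 0.53 and was highest on FOG1 ki/ki replicate 1 at 322, while Col4a2, its neighbour in the gene table and its partner chain, had -0.34. Nid2, a nidogen that links laminin to type IV collagen, read 13.4, 24 and 6.16 in controls and 48.6, 59.4 and 7.71 in FOG1 ki/ki (log2 difference 0.72, limma adjusted p = 0.939, and 0.229 with the block). Nid1 (-0.61), Lama4 (-0.48) and Lamb1 (-0.41) lay lower in FOG1 ki/ki. Only 3 of the 8 genes of this group were highest on control replicate 2, against 38 of the other 39 members.

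All 8 measured matrix glycoproteins and microfibril genes were highest on control replicate 2 and had a lower mean in FOG1 ki/ki (median log2 difference -0.44, 0 passed). Fn1, the cell-binding glycoprotein fibronectin, read 474, 1873 and 81.5 in controls and 262, 777 and 72.2 in FOG1 ki/ki. Sparc, a collagen-binding glycoprotein, read 882, 1735 and 203 in controls and 1026, 1132 and 109 in FOG1 ki/ki. In the arrays numbered 1 Sparc was thus slightly higher in FOG1 ki/ki, unlike Fn1. Log2 differences were -0.74 for Fn1 and -0.40 for Sparc. Postn, the fibroblast protein periostin, had the lowest difference of the group, -1.26 (SE 0.78, limma adjusted p = 0.935, and 0.192 with the block). Its control signal was 8.43-fold that of FOG1 ki/ki in the arrays numbered 2, while FOG1 ki/ki replicate 1, at 8.8, and both arrays numbered 3, at 7.57 and 1.82, were near background. Igfbp7, a secreted insulin-like growth factor binding protein, turned within the pairs, at -0.82, -1.12 and 1.21. Fstl1 (-0.78), Fbln2 (-0.47), Tnc (-0.41) and Mfap5 (-0.36) made up the rest, and Mfap5, which reached 19.6 at most, was 1 of 2 members that failed the filter.

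Of 4 proteoglycans 3 had a lower mean in FOG1 ki/ki (median log2 difference -0.63, 0 passed). Bgn, the small collagen-binding biglycan, read 274, 1288 and 55.2 in controls and 136, 386 and 53.4 in FOG1 ki/ki. The arrays numbered 3 did not differ for it, and control replicates 1 and 2 were 2.01- and 3.34-fold above their FOG1 ki/ki pairs. Dcn (-0.79) and Lum (-0.46), related collagen-binding proteoglycans encoded next to each other, also had their largest gap in the arrays numbered 2, at -1.71 and -0.89 on the log2 scale. Vcan, the large proteoglycan versican, went another way, with 209, 326 and 62 in controls and 106, 252 and 408 in FOG1 ki/ki. Its highest value was on FOG1 ki/ki replicate 3, an array on which 26 of 47 members had their lowest. Another 2 Vcan probe sets that reached a signal of 16 read 37.2 and 98.8 on that array, against 17.7 and 13.4 on control replicate 3, but their highest value was on control replicate 2.

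Collagen processing genes had a lower mean in FOG1 ki/ki for 5 of 5 (median log2 difference -0.47, 0 passed). Lox, the lysyl oxidase that crosslinks collagen, read 479, 1521 and 5.75 in controls and 234, 653 and 21.5 in FOG1 ki/ki. The log2 range over the 3 controls was 6.14 and the log2 difference between genotypes was -0.47 (SE 1.60). P4ha1, a subunit of collagen prolyl hydroxylase, read 280, 333 and 213 in controls and 313, 218 and 185 in FOG1 ki/ki, a log2 range of 0.61 over the controls. Serpinh1, the collagen chaperone HSP47, had a log2 difference of -0.72, Loxl1 -0.65 and P4ha2 -0.42.

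**Figure D3:**
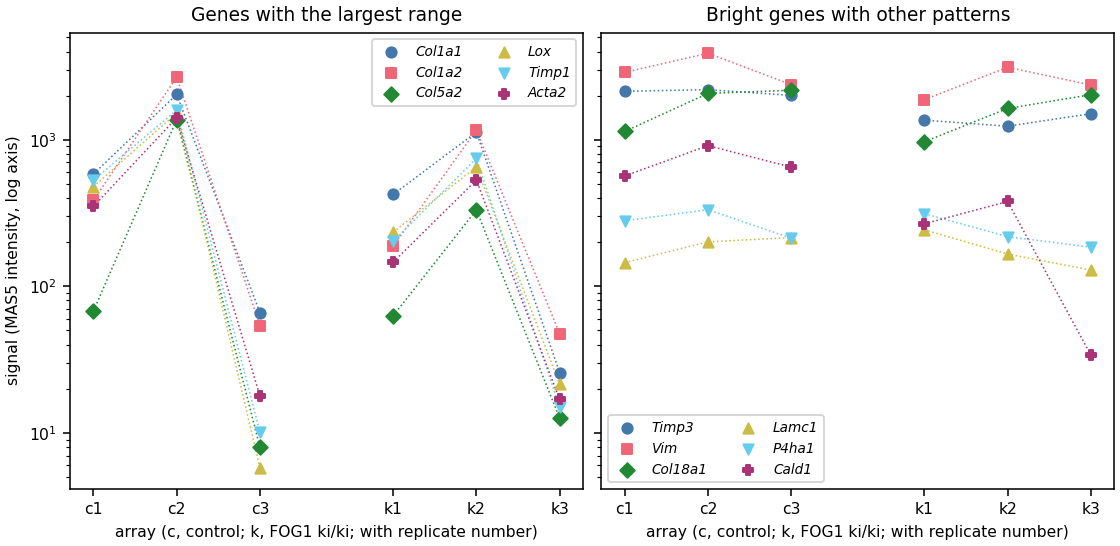
MAS5 signal (log axis) of 12 genes on the 6 arrays (c1 to c3, control; k1 to k3, FOG1 ki/ki); dotted lines only join the points of a gene within a group. The 6 genes on the left have the largest range and all peak on control replicate 2, whereas Timp3 on the right stays between 2008 and 2196 in controls and between 1237 and 1506 in FOG1 ki/ki.

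The proteinase and inhibitor genes had a lower mean in FOG1 ki/ki for 4 of 4 (median log2 difference -1.02, 0 passed), and in Timp3 the groups were tight and apart. Timp3, a matrix-bound inhibitor of metalloproteinases, read 2141, 2196 and 2008 in controls and 1360, 1237 and 1506 in FOG1 ki/ki. All 3 FOG1 ki/ki arrays lay below all 3 controls, including on the arrays numbered 3, and replicate number accounted for 0.939% of its variance. Its means were 2115 ± 96.8 and 1368 ± 135 (SD, n = 3 each). The gap of -0.63 in log2 units (SE 0.12) missed the threshold, with adjusted p = 0.211 in limma and 0.0635 with the block. The other 3 Timp3 probe sets differed by -0.75, -0.66 and -1.22, and in each of them the groups did not overlap either. Only 2 of 45 tested members, Timp3 and Cald1, had all FOG1 ki/ki arrays below all controls, which is no larger a share than the 4.93% of all genes tested.

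Timp1 and Timp2, soluble inhibitors of the same family, did not share the Timp3 pattern. Timp1 read 531, 1594 and 10.1 in controls and 203, 745 and 15 in FOG1 ki/ki, so both arrays numbered 3 were near background. Timp2 read 254, 712 and 173 in controls and 40.7, 307 and 98 in FOG1 ki/ki (log2 difference -1.38, limma adjusted p = 0.864, and 0.0986 with the block), and it was lowest on FOG1 ki/ki replicate 1. That array also had the lowest summed signal of 8 macrophage markers, 1754 against 4431 to 9130 on the other arrays; 8 of the 8 were lower on average in FOG1 ki/ki, 0 of the 8 stayed below 16 on every array, and the part of macrophages in the Timp2 values was not tested. Mmp2, a gelatinase, read 31.9, 452 and 24 in controls and 6.8, 114 and 3.37 in FOG1 ki/ki (log2 difference -1.32, limma adjusted p = 0.976, and 0.0724 with the block). It was lower in FOG1 ki/ki in each pair, but FOG1 ki/ki replicates 1 and 3 lay below their array medians of 12.3 and 5.93, so the size of the gap is measured in the arrays numbered 2 only.

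The stretches before the start sites of 4 genes are shown because they belong to the members with some of the widest (Col1a2, Timp1) and narrowest (Timp3, Vim) spreads between arrays. They are the 250 bases before the RefSeq start in GRCm38.p6, 5' to 3', with capitals marking the TATA box (letters TATAAA), the CAAT box (letters CCAAT) and the GC box (letters GGGCGG) wherever these letters stand on either strand.
Col1a2, chr6:4505368-4505617, plus strand: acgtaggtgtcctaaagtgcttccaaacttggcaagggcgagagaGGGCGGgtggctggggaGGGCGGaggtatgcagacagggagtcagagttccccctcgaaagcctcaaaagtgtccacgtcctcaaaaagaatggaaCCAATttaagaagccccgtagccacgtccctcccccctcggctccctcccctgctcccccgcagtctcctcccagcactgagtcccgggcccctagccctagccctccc
Timp1, chrX:20869916-20870165, plus strand: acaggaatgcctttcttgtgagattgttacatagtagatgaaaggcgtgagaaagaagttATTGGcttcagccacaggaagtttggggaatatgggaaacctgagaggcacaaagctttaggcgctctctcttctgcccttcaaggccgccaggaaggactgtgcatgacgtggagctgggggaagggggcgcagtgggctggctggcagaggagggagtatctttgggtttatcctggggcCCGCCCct
Timp3, chr10:86300162-86300411, plus strand: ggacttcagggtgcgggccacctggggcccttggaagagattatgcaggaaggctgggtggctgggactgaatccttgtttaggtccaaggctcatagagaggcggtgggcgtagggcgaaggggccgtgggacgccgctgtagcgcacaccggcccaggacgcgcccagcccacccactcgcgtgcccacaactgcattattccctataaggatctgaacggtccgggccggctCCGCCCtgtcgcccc
Vim, chr2:13574061-13574310, plus strand: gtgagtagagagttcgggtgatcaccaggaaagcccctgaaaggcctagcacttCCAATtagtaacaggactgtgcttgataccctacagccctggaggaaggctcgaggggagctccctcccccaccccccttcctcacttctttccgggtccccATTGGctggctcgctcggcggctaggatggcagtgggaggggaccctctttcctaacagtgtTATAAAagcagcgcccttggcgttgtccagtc
Col1a2 held a CAAT box and a pair of GC boxes, Timp1 a CAAT box and a GC box, both on the opposite strand, Timp3 a GC box on the opposite strand, and Vim a TATA box and a CAAT box on each strand. The table gave such windows for 31 of the 49 genes, taking the first start listed. The GC box stood in 20 of them (64.5%, against 32.7% of all windows in the table), the CAAT box in 12 (38.7%, against 33.8%), the TATA box in 3 (9.68%, against 12.4%) and the CArG box in 0 (against 1.47%). These are matches of letters only. Members gave 1 window each, while the comparison took every window listed, so the shares are not like for like.

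Of 4 surface proteins 3 had a lower mean in FOG1 ki/ki (median log2 difference -0.45, 0 passed). Cdh11, a cadherin of mesenchymal cells, read 106, 452 and 7.25 in controls and 41.4, 113 and 1.47 in FOG1 ki/ki. Its gap was -1.12 in log2 units (SE 1.11, limma adjusted p = 0.997, and 0.148 with the block). Pdgfrb, a receptor for platelet-derived growth factor found on fibroblasts and pericytes, read 56.6, 69.3 and 5.92 in controls and 30.5, 28.8 and 7.28 in FOG1 ki/ki. Both were lower in FOG1 ki/ki within the arrays numbered 1 and 2, and both were near background on those numbered 3. Pdgfra (-0.41) and Thy1 (0.17) were dim, reaching 59.5 and 23.6 at most.

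The contractile genes had a lower mean in FOG1 ki/ki for 5 of 5 (median log2 difference -0.87, 0 passed), but differed in their order of arrays. Acta2, the smooth muscle actin of myofibroblasts, read 351, 1414 and 17.8 in controls and 146, 531 and 16.9 in FOG1 ki/ki. Tagln, an actin-binding protein of smooth muscle, had a log2 difference of -0.95 and the same order of arrays. Vim, the intermediate filament vimentin of mesenchymal and blood cells, was the brightest member at 2884, 3893 and 2378 in controls and 1878, 3124 and 2363 in FOG1 ki/ki. Both arrays numbered 3 were bright for it, and the log2 difference between genotypes was -0.31. Cald1, the actin-binding caldesmon, read 566, 912 and 650 in controls and 267, 379 and 33.9 in FOG1 ki/ki, so the groups did not overlap and FOG1 ki/ki replicate 3 stood far below the rest. Its log2 difference was -2.00 (SE 0.71, limma adjusted p = 0.582, and 0.134 with the block), the largest of the list, and within the pairs it was -1.04, -1.23 and -3.74. Another 2 Cald1 probe sets, which differed by -1.34 and -1.43, also had groups that did not overlap. Cnn1, the smooth muscle calponin, stayed at or below 3.5 on every array and failed the filter.

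Markers of other cells in the same cultures did not all follow the matrix genes. All 9 megakaryocyte markers measured had a lower mean in FOG1 ki/ki, against 49% of all genes measured, but the median log2 difference was only -0.19. Pf4 (-0.00), Ppbp (-0.05), Itga2b (-0.07) and Itgb3 (-0.12) differed little, and within the arrays numbered 3 they were higher in FOG1 ki/ki. Larger differences were those of Gp1bb (-0.52), Tubb1 (-1.01) and Gp6, the platelet collagen receptor glycoprotein VI. Gp6 passed with the block (log2 difference -1.35, limma adjusted p = 0.356, and 0.0342 with the block). The fibroblast and mesenchyme markers, 15 measured of 15 and 9 of them members, summed to 1572, 6939 and 221 in controls and 1032, 2866 and 159 in FOG1 ki/ki. Members made up most of each sum, with Col1a1 and Col1a2 at 2036 and 2675 on control replicate 2. The sums thus largely restate member values. Of the 6 that are not members, the mesenchymal transcription factor Prrx1 read 117, 370 and 4.45 in controls and 47.2, 103 and 0.383 in FOG1 ki/ki, and the collagen receptor Ddr2 read 35.2, 127 and 2.16 and then 16.3, 30.9 and 1.57. Both were highest on control replicate 2 and lowest on the arrays numbered 3, as were Col1a1 and Col1a2. Twist2 and Tcf21 stayed below 16 on every array. Of 8 smooth muscle markers, 4 did so too (Cnn1, Myh11, Des and Myocd), and the list summed to between 306 and 2060 in controls and between 74 and 674 in FOG1 ki/ki. Acta2, Tagln and Cnn1 of that list are members, and Acta2 and Tagln read 1414 and 454 on control replicate 2, where the sum was highest. Smtn, unlike Acta2 and Tagln, was highest on control replicate 3, at 51.9, 127 and 271 in controls and 25.2, 30 and 43.7 in FOG1 ki/ki.

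On both arrays numbered 3, 12 of the 15 fibroblast markers lay below a signal of 16, against 5, 2, 4 and 3 on control replicates 1 and 2 and FOG1 ki/ki replicates 1 and 2. The other 3, Col1a1, Col1a2 and Col3a1, read 66.1, 53.7 and 46.1 on control replicate 3 and 25.8, 47.5 and 37 on FOG1 ki/ki replicate 3. Of 7 pericyte and stellate cell markers, 4 stayed below 16 throughout (Cspg4, Lrat, Ngfr and Des), and the sums, 101 to 1285 in controls and 58.4 to 356 in FOG1 ki/ki, had their highest value in each group on the array numbered 3, where Reln read 1270 in control and 344 in FOG1 ki/ki. Endothelial markers, 8 of 8 measured, summed to between 277 and 381 on all arrays, but single markers differed in their order of arrays. Emcn read 92.1, 35.6 and 1.67 in controls and 36.1, 20.9 and 1.78 in FOG1 ki/ki. Tie1 read 74.5, 94.2 and 264 and then 83.1, 94.1 and 167. All 6 mesothelial markers stayed below 16, as did 3 of 3 erythroid and 4 of 6 liver cell markers measured (Alb, Apoa1, Ttr and Fgb). The liver cell marker Afp read 315, 224 and 289 in controls and 185, 332 and 106 in FOG1 ki/ki, and Apoa2 reached 28.3 at most. Mast cell markers, 6 of 6 measured with Mcpt4 below 16, summed to 2423, 2670 and 204 on control replicates 1, 2 and 3. On FOG1 ki/ki replicates 1, 2 and 3 they summed to 4931, 4980 and 4339. Of the 6, 1 had a lower mean in FOG1 ki/ki, and the median log2 difference was 0.76. The mast cell marker Ms4a2 passed with the block (log2 difference 2.77, limma adjusted p = 0.255, and 0.00902 with the block). The part of these cells in the matrix values was not tested.

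**Figure D4:**
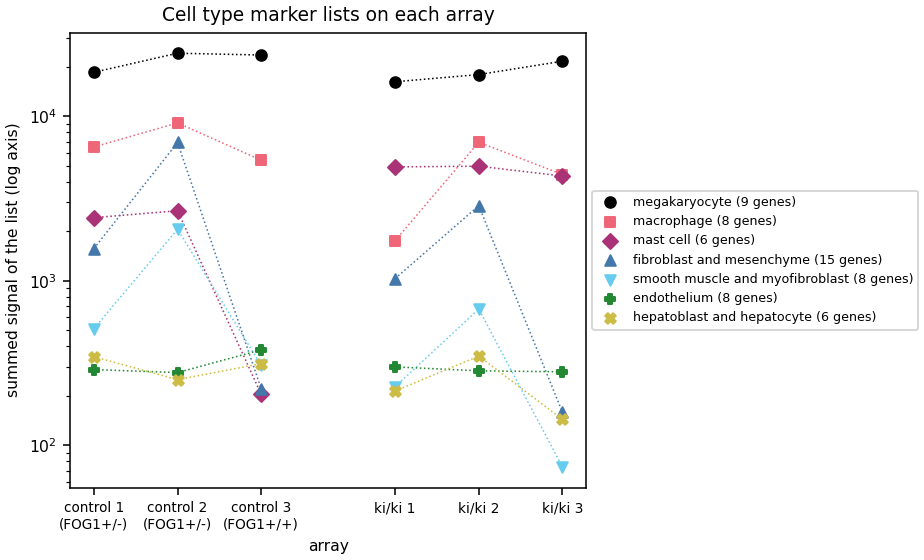
Summed signal (log axis) of 7 cell type marker lists on the 6 arrays, fixed by name; dotted lines only join the points of a list within a group. The fibroblast list, whose sum comes mostly from members, runs from 159 on FOG1 ki/ki replicate 3 to 6939 on control replicate 2. The megakaryocyte list runs from 16236 to 21644 in FOG1 ki/ki and from 18542 to 24223 in control.

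Other matrix genes, 66 listed by name and not members, were examined for the same pattern. Of 63 measured, 45 were highest on control replicate 2, 48 had a lower mean in FOG1 ki/ki, and the median log2 difference was -0.19. Of the 39 tested, 0 passed in limma, with 2 at an unadjusted p under 0.05 (0.151% and 6.69% of all genes tested). With the block 1 passed and 10 had an unadjusted p under 0.05 (0.835% and 18.4% of all). The gene that passed was Thbs2, the matrix protein thrombospondin 2, which read 164, 569 and 80.4 in controls and 55, 166 and 15.4 in FOG1 ki/ki (log2 difference -1.55, limma adjusted p = 0.871, and 0.0342 with the block). Agrn, the basement membrane proteoglycan agrin, was 1 of the 2 with a small unadjusted p and ran the other way. It read 69.5, 110 and 42.5 in controls and 172, 203 and 385 in FOG1 ki/ki (log2 difference 1.57, limma adjusted p = 0.329, and 0.126 with the block). The groups of Agrn did not overlap, and its highest value was on FOG1 ki/ki replicate 3. The other was Ltbp2, a microfibril protein, at 71.3, 378 and 160 in controls and 19.4, 64.1 and 1.99 in FOG1 ki/ki. Its log2 difference was -2.30 (limma adjusted p = 0.434, and 0.0629 with the block), also without overlap, with FOG1 ki/ki replicate 3 near background. P4hb (0.01) and Ppib (0.03), enzymes of the secretory pathway that all cells use, differed little, as did P3h1 (-0.01). P3h3 (0.02) had near-equal means from unequal pairs, at 17, 77.2 and 13.7 in controls and 27.9, 37.3 and 25 in FOG1 ki/ki. Plod1 (-0.39), Plod2 (-0.41), Plod3 (-0.26) and Crtap (-0.19) had a lower mean in FOG1 ki/ki.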

How the data were processed

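Expression was measured on 6 arrays. The authors deposited linear MAS5 intensities (tool per the submitters' processing notes, version not given in the sources used here), and each column's 2% trimmed mean was 150. The number of arrays limits the precision. A pseudocount of 16 was added before taking log2, which understates changes of dim genes. Left out were 64 control probe sets and, in tests, the dimmer 50% of probe sets. The brightest probe set assigned to a gene and no other stood for it. Genotypes were tested with limma 3.58.1 (R 4.3.3, lmFit, eBayes with a trend, two-sided), with Benjamini-Hochberg adjustment over 11260 genes and a threshold of 0.05. The fit without the block was also run on simulated data that held no effect of the replicate number, so that run does not cover such an effect. Descriptions over measured genes used no filter. Symbols came from GEO's platform annotation, and 0 differed from RefSeq (GRCm38.p6). Python 3.11.15, pandas 2.3.3, numpy 2.4.6 and matplotlib 3.10.9 did the rest.

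Deviations of same-numbered control and FOG1 ki/ki arrays from their group means correlated at 0.482, 0.689 and 0.674 over the genes tested. Those of different-numbered arrays correlated at -0.568 to 0.0767. Deviations cancel within a group, so these correlations are tied to each other. The numbers were read as pairing from these same data, which the labels do not state. The fit without the block stayed the main one. The labels name no separate embryos, so p-values measure only the spread between these samples. The members and lists were chosen with earlier results of these data known. Values on every array are given for the 2 brightest members of each role, members past the threshold or with groups that do not overlap, and the 6 with the largest range. Nid2, Timp2, Mmp2, the other matrix genes named and the markers named were chosen after their values were seen.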

Additional observations from a re-analysis of the deposited data

How the results depend on the processing

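The median log2 difference of the members was -0.61. It ran from -1.39 to 0.23 when 1 array or 1 pair was left out, positive only without control replicate 2, and from -0.75 to -0.42 under the other settings. The count of members lower in FOG1 ki/ki ran from 17 to 45 on leaving arrays out and was 43 with another pseudocount, normalization, probe set rule or no filter. Members called by limma stayed at 0 under these settings, with the replicate block and without any 1 array, and reached 14 without the arrays numbered 3 in the blocked fit. Genes called over all genes tested numbered 17, 94 with the replicate block, 8 with a pseudocount of 1, 9 with the mean of all probe sets, 1 with no filter, 8 with the replicate block and no filter, and 3 with the lower 75% of probe sets left out; leaving arrays out gave 0 to 359. The blocked fit gave 207, 128 and 359 without the arrays numbered 1, 2 and 3. Of 20 named members 14 changed sign on leaving out an array or pair, 11 of them without control replicate 2, and 0 under other settings; the cause was not tested. Their ranges were Col1a1 -2.01 to 0.60, Col1a2 -2.07 to 0.57, Col6a1 -1.50 to 0.23, Col6a2 -1.40 to 0.40, Col18a1 -0.52 to 0.08, Lamc1 -0.46 to 0.22, Sparc -1.24 to 0.64, Fn1 -1.84 to 0.30, Bgn -1.92 to 0.17, Vcan -0.61 to 1.05, Lox -2.24 to 0.83, Timp1 -2.44 to 0.53, Col5a2 -1.89 to 1.04, Acta2 -2.34 to 0.36. Timp3, Cald1, Vim, P4ha1, Cdh11 and Pdgfrb kept their sign. With the replicate block over all 6 arrays 0 of the 20 passed, and 10 did so without the arrays numbered 3. Signals near background limit what the arrays numbered 3 can show.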
